A study of Canis lupus familiaris with 24 samples.

Results

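Gene expression was compared between the lavage-injured lung and the control lung of the same animal at 12 matched sites, which used 24 of the 24 arrays of the series. A matched site is a piece of each lung from the same dog, the same level (apex or base) and the same position under gravity (dependent, the lower part, or nondependent, the upper part), so each of the 3 dogs gave 4 pairs of arrays. The members were chosen from the sample titles alone, and the headers of the array files gave the same lung, level and position. The animals were 3 mongrel dogs weighing 21.3 ± 1.5 kg, under pentobarbital and pancuronium, each with a double-lumen tube that let the lungs be ventilated apart. The injured group was the left lung, washed with warm saline at 20 ml/kg on 4 occasions, and the control group was the unwashed right lung. Both lungs were ventilated at 25 breaths/min for 5 h, and 5 cmH2O of positive end-expiratory pressure (PEEP) was applied to the control lung alone. Side, lavage and PEEP therefore changed together, and their parts in any difference below cannot be told apart. The labels give no age or genotype.

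Saline lavage strips surfactant, the lipid and protein film that alveolar type 2 cells secrete to keep alveoli open. Surfactant-poor alveoli collapse and reopen with each breath, which stretches the thin type 1 cells that form most of the gas-exchange surface and the capillary endothelium beneath them. The genes known to respond to such strain include early transcription factors, inhibitors of MAP kinase, cytokines, makers of hyaluronan and versican, heat shock proteins and the metal-binding metallothioneins. Lung tissue in dependent regions is compressed by the weight above it, so regional differences in the response to ventilation are a common question in this model.

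The dog RNA was read on a human Affymetrix genome array, and 20034 probe sets with a Present call on 6 or more of the 24 arrays were tested. The share of probe sets called Present ran from 60.78 to 82.32% per array. Of 8 defining lung genes, the surfactant gene SFTPC, the endothelial CDH5 and the fibroblast collagen COL3A1 were Present on 24 of 24 arrays, AGER of type 1 cells on 23, and SCGB1A1 of airway club cells on 11. In dog 3, all injured arrays other than the base nondependent one stood apart by their highest signals. These were 22155 to 27749, against at most 20465 on any other array. Results are therefore also given without those 3 pairs. By the SD of their injured minus control log2 differences, 0.79 to 0.92, these pairs did not stand apart from those of dog 1, at 0.85 to 0.96. The signal of a probe set is an intensity, given below as log2, and because human probes match dog sequences unequally, levels were not compared between genes. A difference is the log2 signal of the injured piece minus that of its control piece, and a gene's value is the mean of the 3 dog means, with its standard error (SE) from limma.

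The first question was how alike the 12 pairs were. They were little alike: over all probe sets, the differences of pairs from the same dog had a Pearson correlation of -0.16 to 0.26, with a median of 0.031 over 18 comparisons of pairs. Pairs from other dogs had correlations of -0.076 to 0.14, with a median of 0.023 over 48 comparisons, and at the same site in other dogs the median was 0.047 over 12. Averaging the 4 pairs of a dog raised the likeness only slightly, to 0.15 between dogs 1 and 2, 0.073 between dogs 1 and 3, and 0.12 between dogs 2 and 3. These correlations run over probe sets of the same array design, which are not independent replicates. The highest value, 0.26, joined 2 of the 3 pairs of dog 3 that stand apart, and the next, 0.25, joined the base pairs of dog 1. The median SD of a probe set was 0.64 among the 4 pairs of a dog and 0.28 among the 3 dog means, each of which averages 4 pairs.

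**Figure D1:**
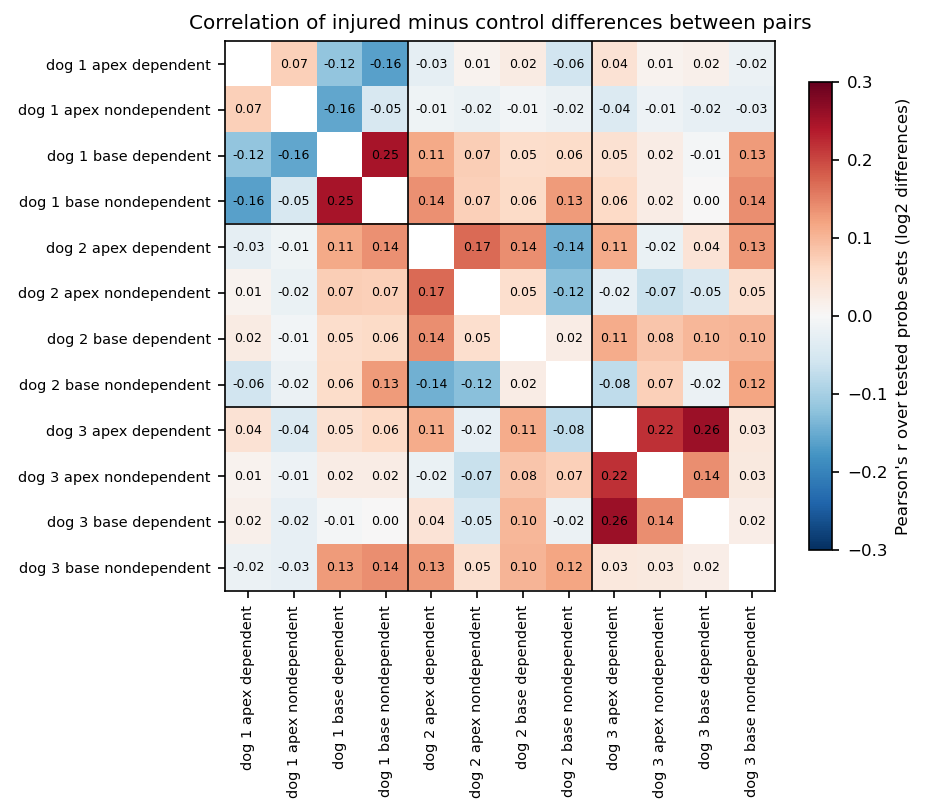
Pearson correlation, over 20034 probe sets, of the injured minus control log2 differences between each 2 of the 12 matched pairs, with lines between the dogs and the diagonal left blank. Most cells lie near 0, and the highest is 0.26 between apex dependent and base dependent of dog 3.

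The pairs also differed in size. The share of probe sets at least 2-fold apart in a pair ran from 8.86% at the base nondependent site of dog 3 to 22.2% at the base nondependent site of dog 1. The middle of the distribution moved little, with a median difference between -0.18 and 0.13 per pair and of 0.026 for the mean of dog means over all probe sets. Only 38 probe sets (0.19%) had the same direction in 12 of 12 pairs, 9 higher in the injured lung (0.0449%) and 29 lower (0.145%). At least 10 of 12 pairs went one way for 1265 probe sets (6.31%), 653 higher (3.26%) and 612 lower (3.05%), and the 3 dog means shared a sign for 5951 (29.7%). Without the 3 pairs of dog 3 that stand apart, 165 probe sets (0.824%) had 1 direction in all 9 remaining pairs.

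**Figure D2:**
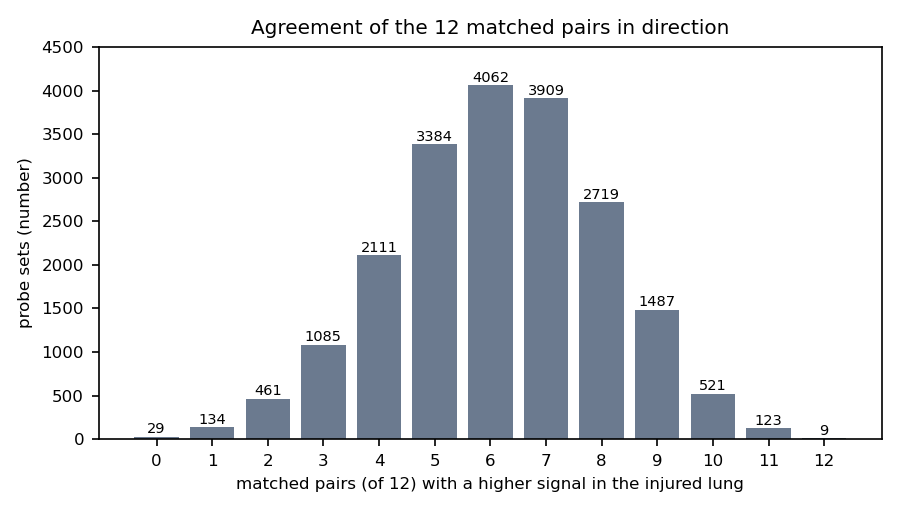
Number of probe sets (vertical axis) by how many of the 12 matched pairs had the higher signal in the injured lung (horizontal axis), over 20034 probe sets. The largest group, 4062, was split evenly at 6 pairs, 29 were higher in 0 pairs and 9 were higher in 12.

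The next question was which genes differed between the lungs beyond the spread between dogs. With the dog as the unit, 6 of 20034 probe sets passed the test (0.0299%), 3 higher in the injured lung (0.015%) and 3 lower (0.015%). Those that rose were MT2A, a metallothionein that binds zinc and copper, THBS1, the matrix glycoprotein thrombospondin-1, and PRMT1, the enzyme that makes most asymmetric arginine methylation in cells. Those that fell were SRGAP3, a GTPase-activating protein that switches off Rac, the homeobox transcription factor IRX5, and SEC14L3, of a family of lipid-binding proteins. At an unadjusted p under 0.05, 1744 probe sets (8.71%) differed. Without the 3 pairs of dog 3 that stand apart, limma called 0 probe sets, with a smallest adjusted p of 0.0543 and 2179 (10.9%) at an unadjusted p under 0.05. The 6 all kept their direction there, which was fixed in advance for SRGAP3 and SEC14L3, lower in 12 of 12 pairs. Without dog 1 the count was 0 (1406 at an unadjusted p under 0.05), and without dog 2 or dog 3 it was 41 or 35. It was also 0 after quantile normalization (1619) and without the detection filter (1836) or the intensity trend (1611), and 1, a decrease, with arrays centred on the median. The pieces are bulk tissue, so for this and every later decrease fewer cells of a type and less RNA per cell cannot be told apart.

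In the control lung, the log2 signal of MT2A was at lowest 9.0, at the median 10.19 and at highest 11.82, and in the injured lung these were 9.46, 12.02 and 13.34. The ranges overlapped, and the injured median lay above every control array. MT2A rose 2.74-fold, by 1.45 ± 0.15 (SE, n = 3 dogs, limma adjusted p = 0.0498), with dog means of 1.30, 1.40 and 1.66. The 3 pairs that went the other way were all from the apex, both of dog 1 and the nondependent one of dog 2. Base pairs ran from 0.77 to 3.64 and apex pairs from -0.52 to 2.42.

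THBS1 passed through a probe set that is not the brightest of the gene. Its log2 signal was 8.32, 9.10 and 10.79 in the control lung (lowest, median, highest) and 8.40, 11.14 and 11.95 in the injured lung, so that here too the injured median lay above every control array. It rose 2.39-fold, by 1.26 ± 0.14 (adjusted p = 0.0498), with dog means of 1.10, 1.27 and 1.40, and was higher in 11 of 12 pairs. The brightest probe set of THBS1 stood at 1.24 ± 0.20 (adjusted p = 0.128) and was higher in 10 of 12 pairs. All 3 other probe sets had the same sign, the least at 0.08.

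PRMT1 had a log2 signal of 7.28, 9.39 and 10.13 in the control lung (lowest, median, highest) and of 8.32, 10.57 and 12.13 in the injured lung. It rose 2.31-fold, by 1.21 ± 0.14 (adjusted p = 0.0498), with dog means of 1.07, 1.33 and 1.22. PRMT1 was higher in 11 of 12 pairs and was Present on all 24 arrays. Its mean over dogs was 2.25 at the base nondependent site, and 0.83 (apex dependent), 0.82 (apex nondependent) and 0.93 (base dependent) elsewhere.

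Among the decreases, SRGAP3 had a log2 signal of 8.38, 9.45 and 10.07 in the control lung (lowest, median, highest) and of 6.59, 7.91 and 9.46 in the injured lung. It fell 2.72-fold, a log2 difference of -1.44 ± 0.13 (adjusted p = 0.042), and it was lower in 12 of 12 pairs, by -0.37 at least and -2.91 at most. Between dogs, the mean log2 signal had an SD of 0.37 in the control lung and 0.32 in the injured lung. Its other probe set stood at 0.04, so the decrease was seen by 1 of its probe sets only.

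IRX5, which helps pattern organs in development, had a log2 signal of 8.37, 9.19 and 10.75 in the control lung (lowest, median, highest) and of 4.75, 8.20 and 10.31 in the injured lung. It fell 2.93-fold, a difference of -1.55 ± 0.17 (adjusted p = 0.0498), and was lower in 11 of 12 pairs. The exception was the apex nondependent pair of dog 2 at 0.04, and the base nondependent pair of the same dog held the largest difference, -5.18. With pieces as units its adjusted p was 0.0937.

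SEC14L3 had a log2 signal of 8.82, 9.30 and 10.49 in the control lung (lowest, median, highest) and of 4.37, 8.34 and 9.59 in the injured lung. It fell 3.19-fold, a difference of -1.67 ± 0.19 (adjusted p = 0.0498), and was lower in 12 of 12 pairs. The pairs were uneven, from -0.10 at the apex nondependent site of dog 2 to -4.56 at the base dependent site of dog 3. It was Present on 12 control arrays and 8 injured arrays, and without the 3 pairs of dog 3 that stand apart it stood at -1.31.

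**Figure D3:**
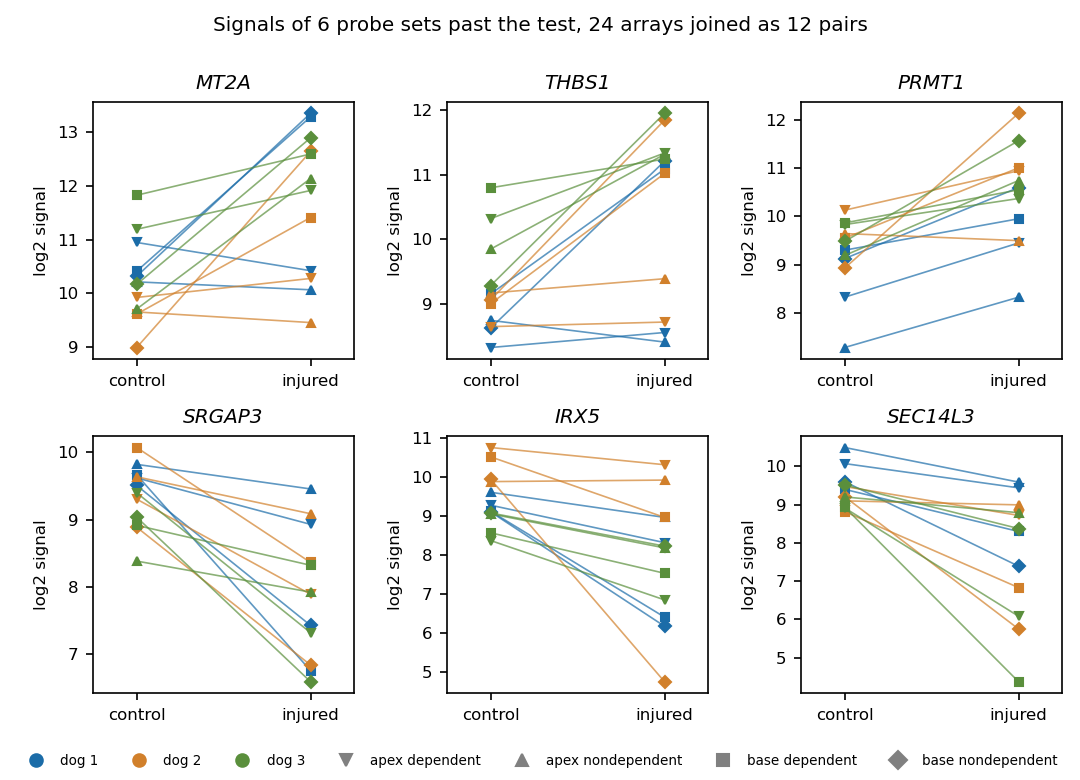
Log2 signal (vertical axis) of the 6 probe sets past the test on the control and injured arrays, with a line joining each of the 12 matched pairs, coloured by dog and marked by site. Lines for SRGAP3 and SEC14L3 go down in 12 of 12 pairs, those for THBS1 and PRMT1 go up in 11, those for IRX5 go down in 11, and 3 lines for MT2A go down where the other 9 go up.

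When the pieces of a lung were taken as separate units, the count past the test was 42 (0.21%), of which 27 were higher (0.135%) and 15 lower (0.0749%), and 5 of the 6 above were among them. Each of the 42 had the same sign in 3 dogs, 34 had it in at least 10 of 12 pairs, and the fewest was 9. The 42 were called from these same pairs, so such agreement follows in part from the choice. The test with pieces as units treats pieces of 1 washed lung as separate treatments, although the lavage was given to the whole lung. RNA quality was measured as the 3′ signal minus the 5′ signal of the GAPDH and ACTB control probe sets, and with both as covariates the count was 30 (0.15%). The GAPDH measure was higher in the injured piece in 7 of 12 pairs, with dog means of 0.36, 0.13 and 0.0011, and that of ACTB in 5 of 12, with -0.32, 0.048 and -0.026. The part of RNA quality in the results was not tested on dog means.

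A gene that moves the same way in every pair need not move far. Counted as genes by their brightest probe set, 2 of 11226 were higher in 12 of 12 pairs (0.0178%) and 21 were lower (0.187%). Of the 38 probe sets with 12 of 12 pairs of 1 sign, 2 passed the test, SRGAP3 and SEC14L3. The median size of their differences was 0.69.

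FGL2 and UGT2A3 were the 2 genes higher in every pair. FGL2 is a fibrinogen-like protein that can cleave prothrombin on macrophages and endothelium. Its log2 signal was 5.85, 6.76 and 7.45 in the control lung (lowest, median, highest) and 6.99, 7.43 and 8.48 in the injured lung. FGL2 stood at 0.82 ± 0.17 (adjusted p = 0.227), with pairs from 0.07 to 2.19. UGT2A3, which attaches glucuronic acid to small molecules, stood at 1.22 ± 0.32 (adjusted p = 0.334), with dog means of 1.60, 1.50 and 0.55. The log2 signal of UGT2A3 was 2.17, 4.29 and 5.80 in the control lung and 4.41, 5.34 and 6.01 in the injured lung. It was Present on 7 control arrays and 12 injured arrays.

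RAMP2 was the gene nearest to the threshold among those lower in every pair that did not pass the test. It carries the calcitonin receptor-like receptor to the cell surface, where the pair forms the adrenomedullin receptor that guards the endothelial barrier. Its log2 signal was 8.61, 9.73 and 10.13 in the control lung (lowest, median, highest) and 7.81, 8.70 and 9.37 in the injured lung. RAMP2 stood at -0.98 ± 0.13 (adjusted p = 0.0705), with dog means of -0.94, -0.96 and -1.06. Its site means were -1.12 and -0.67 at the apex and -1.07 at both base sites, but single pairs were uneven. They ran from -0.19 at the apex dependent site of dog 1 to -2.02 at the base nondependent site of dog 1.

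SMAD6, an inhibitor of BMP signalling that BMP itself induces, stood at -0.85 ± 0.17 (adjusted p = 0.227), from a pair at -0.03 to one at -1.97. Of its 3 other probe sets 1 had the same sign, and their median was 0.16. CAMK2N1, an inhibitor of CaM kinase II, stood at -0.71 ± 0.13 (adjusted p = 0.202), with dog means of -0.59, -0.70 and -0.83. CPEB3, which binds the tails of mRNAs and holds back their translation, stood at -0.88 ± 0.18. All of these were lower in 12 of 12 pairs. Without the 3 pairs of dog 3 that stand apart, SMAD6 stood at -0.70, CAMK2N1 at -0.56 and CPEB3 at -0.72.

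HTRA2, a protease of the mitochondrial intermembrane space, had uneven pairs. It was lower in 12 of 12 with a mean of -1.0 ± 0.35 (adjusted p = 0.511), but its dog means were -0.32, -0.33 and -2.35. The 3 pairs of dog 3 that stand apart held differences of -2.64 to -3.16, and without them HTRA2 stood at -0.40. ZFAND6, the ubiquitin ligase PJA2, MEA1 and SPOCK2, a proteoglycan of the matrix, were also lower in 12 of 12 pairs and stood between -0.71 and -0.51.

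**Figure D4:**
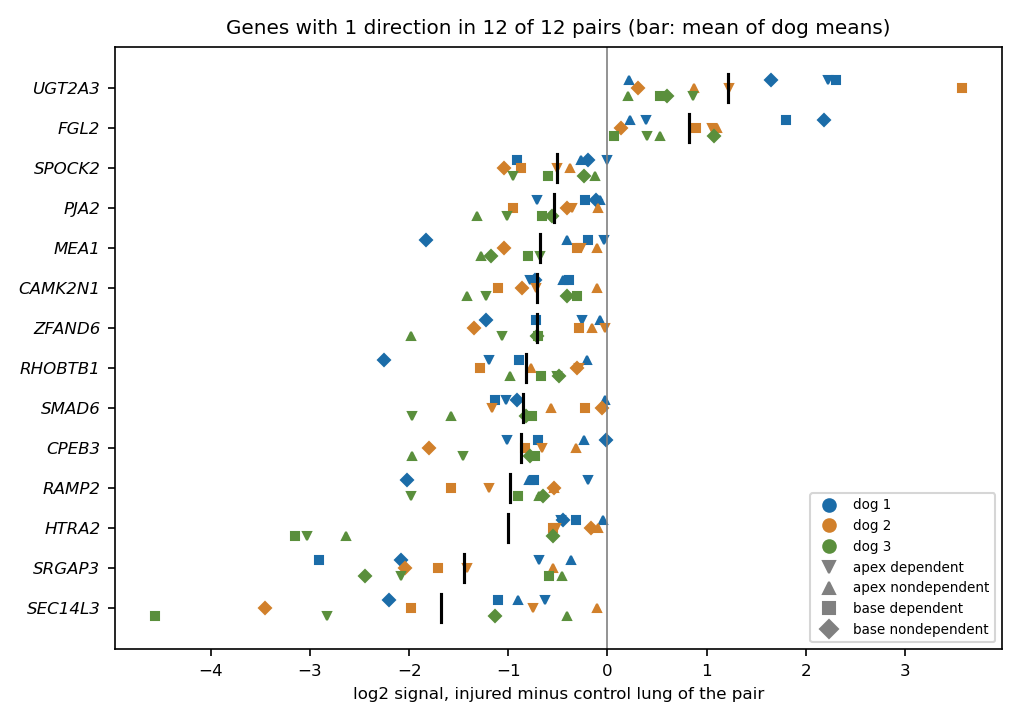
Log2 difference, injured minus control (horizontal axis), of each of the 12 matched pairs for 14 genes with 1 direction in 12 of 12 pairs, coloured by dog and marked by site; the bar is the mean of dog means. Points of HTRA2 split into 3 of dog 3 at -2.64 and below and 9 above -0.56, while the bars of RAMP2 and CAMK2N1 lie near the middle of all 3 dogs.

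Genes were then read in 43 lists by role, each gene by its brightest probe set. As background, 53.1% of 11226 genes had a mean above 0, the median over all genes was 0.016, and at least 10 of 12 pairs were higher for 3.18% of genes and lower for 3.55%. Of all list members, MT2A, PRMT1 and SEC14L3 passed the test on dog means, and no other member did. The medians of 40 of the 43 lists kept their sign under 3 other scalings of the arrays. The exceptions were oxidative stress enzymes, neutrophil markers and T and NK cell markers, all with medians near 0. Without the 3 pairs of dog 3 that stand apart, more medians changed sign. Those of cytosolic ribosomal proteins, BMP and TGF-beta signalling, lipid synthesis and MHC class II turned positive, at 0.076, 0.01, 0.0185 and 0.015. Those of the interferon response, the unfolded protein response and B and plasma cells turned negative, at -0.020, -0.024 and -0.064. Neutrophil and T and NK cell medians did so too, at -0.040 and -0.026.

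The metallothioneins, which hold zinc and copper and are induced by metals, glucocorticoids and oxidants, had the highest list median, 1.08 over 7 tested genes, of which 7 were above 0. The list median was 0.82, 0.94 and 1.34 in the 3 dogs and above 0 in 9 of 12 pairs. MT1F stood at 1.27 ± 0.16 (adjusted p = 0.0685), MT1H at 1.14 ± 0.17 (adjusted p = 0.108) and MT1E at 0.64 ± 0.15 (adjusted p = 0.296). MT1E was the 1 member with at least 10 pairs higher. Among them were pairs at 0.0011 (dog 1, apex nondependent) and 0.0036 (dog 2, apex dependent), which hardly differed. In the RefSeq table of the dog, 2 genes carry a metallothionein 1 or 2 name while 7 human names were tested, so the members may share their dog target and are not separate genes here.

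Among stress and feedback genes, the MAP kinase feedback genes had 13 of 16 members above 0, a median of 0.13, and 6 with at least 10 pairs higher against 0 lower. TRIB1, a pseudokinase that steers proteins to degradation, stood at 1.00 ± 0.16 (adjusted p = 0.128) and was higher in 11 of 12 pairs. PHLDA1, an early response gene of growth factors, stood at 0.78 ± 0.16, and the growth factor epiregulin, EREG, at 0.78 ± 0.22. DUSP10, a phosphatase of stress kinases, stood at 0.37 ± 0.16 and was higher in 11 of 12 pairs. Immediate early genes had 17 of 27 members above 0 and a median of 0.13, with EGR3 at 1.04 ± 0.17 and IER5 at 0.60 ± 0.14, each higher in 10 of 12 pairs. KLF4, a transcription factor of endothelium and epithelium, stood the other way at -0.76 ± 0.13 (adjusted p = 0.15) and was lower in 10 pairs. MYC ranged widely, with dog means of 1.01, 2.24 and -0.01.

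Protein folding genes include the heat shock proteins, which keep unfolded proteins from clumping. Of 21 heat shock genes, 16 were above 0 with a median of 0.14, and 7 had at least 10 pairs higher against 1 lower. HSPD1, the mitochondrial chaperonin, stood at 0.66 ± 0.16 and was higher in 10 pairs, and its other probe set stood at 0.75. HSPA9, its mitochondrial HSP70 partner, stood at 0.60 ± 0.18, but the median of its 2 other probe sets was -0.35. The exception was HSPB2, a small heat shock protein of muscle, at -1.52 ± 0.20 (adjusted p = 0.0705) and lower in 11 of 12 pairs, although it was Present on 8 control and 5 injured arrays. The cytosolic chaperonin, the ring that folds actin and tubulin, had 11 of 13 members above 0 and a median of 0.24. CCT8 stood at 1.21 ± 0.16 (adjusted p = 0.0685), CCT7 at 0.74 ± 0.18 and CCT5 at 0.61 ± 0.14, each higher in 10 of 12 pairs. CCT8 had a Present call on 7 control and 7 injured arrays, and a second CCT8 probe set stood at 0.10.

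The lists of RNA and protein synthesis differed among themselves. Translation factors had 23 of 28 members above 0 and a median of 0.22, with EIF5, which helps choose the start codon, at 0.58 ± 0.16 and EIF6, which keeps ribosomal subunits apart, at 0.34 ± 0.13. Nucleolus and ribosome assembly had 17 of 22 above 0 and a median of 0.24, led by nucleolin, NCL, at 0.57 ± 0.14 and higher in 11 of 12 pairs. PES1, of the same list, stood at -0.66 ± 0.16 and was lower in 10. Splicing factors and hnRNP proteins had 27 of 34 above 0, a median of 0.15 and a dog 3 median of -0.18. Their list median was above 0 in 6 of 12 pairs. HNRNPAB stood at 1.32 ± 0.18 (adjusted p = 0.0901) with dog means of 0.77, 1.59 and 1.59. The list of stress granule proteins and arginine methyltransferases, which holds PRMT1, had 8 of 16 members above 0 and a median of 0.015. Beside PRMT1, PRMT5 stood at 0.66 ± 0.16 with 11 pairs higher, and G3BP1, which nucleates stress granules, at 1.08 ± 0.17 (adjusted p = 0.117) with 10 pairs higher.

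Smaller medians were found for other cell machinery. Nuclear pore and transport stood at 0.10 with 21 of 30 above 0, proteasome subunits at 0.11 with 22 of 30, and oxidative phosphorylation at 0.091 with 29 of 39. The list median was above 0 in 6 of 12 pairs for proteasome subunits and in 8 for each of the other 2 lists. In dog 3 it was 0.08 for nuclear pore and transport, -0.08 for proteasome subunits and -0.03 for oxidative phosphorylation. Transfer RNA synthetases stood at 0.098 with 12 of 16 above 0. Nucleotide synthesis stood at 0.052 with 15 of 24, and its member ATIC at 0.58 ± 0.18. NAMPT, the enzyme that salvages nicotinamide for NAD and is also secreted, stood at 1.38 ± 0.30 (adjusted p = 0.241), with dog means of 2.39, 1.27 and 0.48 and another probe set at -0.05. Cytosolic ribosomal proteins had a median of -0.06, 9 of 22 above 0, and -0.27 in dog 3 alone.

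Of the inflammatory genes, none passed the test on dog means. Cytokines and chemokines had 15 of 19 members above 0 and a median of 0.14, with dog medians of 0.29, -0.09 and 0.24. IL1RN, the antagonist of the interleukin-1 receptor, was the 1 member with at least 10 pairs higher, at 0.39 ± 0.17 (adjusted p = 0.569) and 11 of 12. CCL4, which draws monocytes and T cells, stood at 0.67 ± 0.17 (adjusted p = 0.325), and was Present on 7 control and 11 injured arrays. The classic early cytokines did not separate the lungs at this precision. IL6 stood at -0.04 ± 0.15 with 6 pairs either way, its log2 signal running from 6.65 to 7.63 in the control and from 6.68 to 7.44 in the injured lung. IL1B stood at 0.06 ± 0.18, TNF at 0.0040 ± 0.16 and CXCL8 at 0.42 ± 0.26 with dog means of 1.18, -0.15 and 0.24.

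The NF-kB feedback and adhesion list had 12 of 15 above 0 and a median of 0.14, above 0 in 11 of 12 pairs. SELE, the E-selectin that catches leukocytes, stood at 0.72 ± 0.22 (adjusted p = 0.43) and was higher in 10 pairs, and VCAM1 at 0.39 ± 0.16. The interleukin-6 and acute phase list had 17 of 22 above 0 and a median of 0.14. Hypoxia and glycolysis stood at 0.051 with 16 of 28, the interferon response at 0.067 with 15 of 23, and the unfolded protein response at 0.027 with 15 of 23. Coagulation stood at 0.014 with 13 of 22 and oxidative stress enzymes at 0.018 with 8 of 16, both close to the 0.016 of all genes.

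Matrix genes went both ways. Of 29, 12 were above 0 with a median of -0.042, and 3 had at least 10 pairs higher and 3 lower. HAS2, which spins hyaluronan out of the cell, had a log2 signal of 4.88, 5.96 and 7.89 in the control lung (lowest, median, highest) and of 4.33, 7.89 and 11.09 in the injured lung. HAS2 stood at 1.62 ± 0.23 (adjusted p = 0.0901), with dog means of 1.49, 2.31 and 1.07, and was higher in 10 of 12 pairs. VCAN, the proteoglycan versican that hyaluronan binds, stood at 1.01 ± 0.16 (adjusted p = 0.122) and was higher in 11 pairs, and all 4 of its other probe sets lay above 0. The fibrillar collagen gene COL1A2 stood at -0.55 ± 0.18 and was lower in 11.

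In BMP and TGF-beta signalling, 20 of 29 members were below 0, the median was -0.11, and 4 had at least 10 pairs lower against 1 higher. SMAD7, which blocks the TGF-beta receptor, stood at -0.70 ± 0.19 (adjusted p = 0.339) and was lower in 11 pairs, next to SMAD6 described above. BMP5 stood at -0.40 ± 0.15, but its other probe set at 0.95. Without the 3 pairs of dog 3 that stand apart the list median was 0.01. Targets of YAP, a sensor of stretch, had 3 of 9 above 0 and a median of -0.051. CCN2, the best known of them, stood at -1.14 ± 0.40 with dog means of -0.95, 0.11 and -2.58. Vascular tone and permeability had 22 of 34 below 0 and a median of -0.088, with KDR, the main VEGF receptor, at -0.36 ± 0.14 and NOS3, the endothelial nitric oxide synthase, at 0.56 ± 0.18, each of 1 sign in 11 of 12 pairs. Alveolar fluid transport and junctions stood at -0.044 with 13 of 20 below 0, and its sodium pump subunit ATP1B3 at 0.50 ± 0.13 with 11 pairs higher. Lipid synthesis stood at -0.0073 with 10 of 19 below 0, cell cycle at -0.072 with 23 of 33, and MHC class II at -0.09 with 7 of 13. The MHC class II list median was above 0 in 8 of 12 pairs. Without the 3 pairs of dog 3 that stand apart, MHC class II stood at 0.015.

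**Figure D5:**
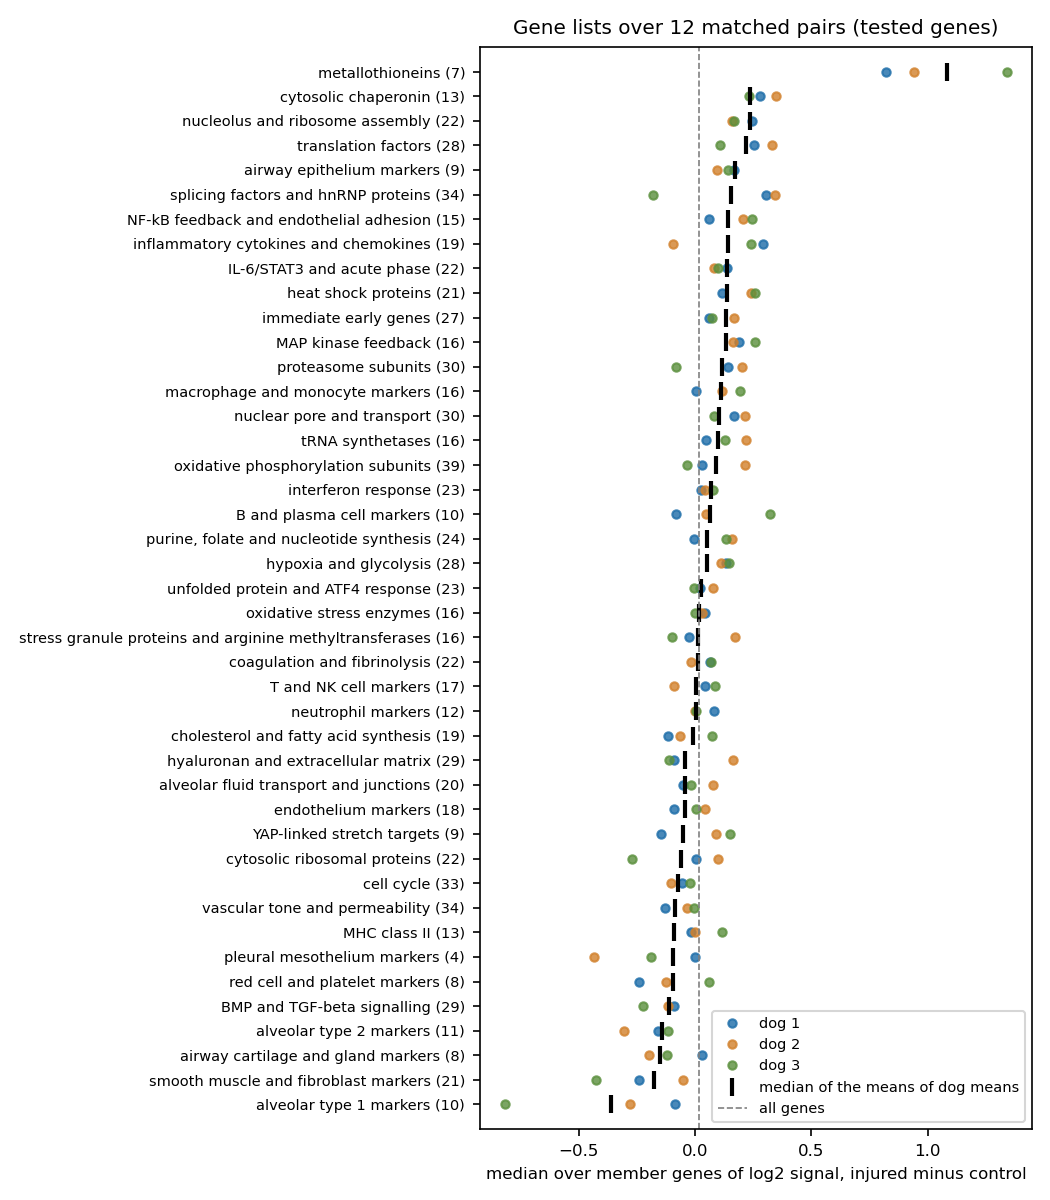
Median over the tested genes of each of 43 lists (numbers of genes in parentheses) of the log2 difference, injured minus control, for each dog (points) and for the mean of dog means (bars), with the median of all genes as a dashed line. The metallothioneins stand at 1.08 and every other list between -0.36 and 0.24, and the 3 dogs spread most widely for type 1 markers.

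Cell type markers were read in the same way. Type 2 cell markers had 10 of 11 members below 0, a median of -0.14, and a list median above 0 in 1 of 12 pairs. SFTPC, the surfactant protein made by type 2 cells alone, had a log2 signal of 11.21 to 11.99 in the control lung and of 9.91 to 11.59 in the injured lung. SFTPC stood at -0.55 ± 0.15 (adjusted p = 0.382) and was lower in 11 of 12 pairs, and SFTPD, a surfactant lectin, stood at -0.59 ± 0.16. Without the 3 pairs of dog 3 that stand apart these were -0.31 and -0.26. Type 1 markers had 6 of 10 below 0 and a median of -0.36, or 5 of 9 and -0.27 without SEC14L3, which was placed in that list but does not define the cell type. AGER, the receptor that marks type 1 cells, stood at -1.02 ± 0.30 with dog means of -0.13, -0.86 and -2.07, and at -0.37 without the 3 pairs that stand apart. CLDN18, a tight junction protein, followed the same order of dogs, with -0.04, -1.14 and -2.86, and stood at -0.51 without those pairs.

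Smooth muscle and fibroblast markers had 19 of 21 below 0, a median of -0.18, and 5 with at least 10 pairs lower against 0 higher. TPM1, a tropomyosin, stood at -0.64 ± 0.14 and was lower in 11 pairs, and COL3A1 stood at -0.53 ± 0.24. Without the 3 pairs that stand apart, the list median was -0.07 and COL3A1 stood at -0.28. Neutrophil markers had 6 of 12 above 0 and a median of 0.0026, and T and NK cell markers 10 of 17 and 0.0044. Macrophage and monocyte markers had 11 of 16 above 0 and a median of 0.11, although the alveolar macrophage receptor MARCO stood at -0.52 ± 0.17. B and plasma cell markers stood at 0.066, with dog medians of -0.08, 0.05 and 0.32. Without the 3 pairs that stand apart they stood at -0.064. Airway epithelium stood at 0.17, endothelium at -0.045, pleural mesothelium at -0.094 with 4 genes tested, and red cells and platelets at -0.096. Cartilage and gland markers stood at -0.15 with 6 of 8 below 0, but their list median was above 0 in 7 of 12 pairs. The part of these cell types in the decreases above was not tested.

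The last question was whether the injury difference varied with the place in the lung. For base minus apex limma called 0 of 20034 probe sets, with a smallest adjusted p of 0.955 and 934 (4.66%) at an unadjusted p under 0.05. For dependent minus nondependent it called 0, with a smallest adjusted p of 0.0632 and 1384 (6.91%) at an unadjusted p under 0.05. Without dog 3 that second contrast called 31, on 2 dogs. The values at each site are therefore given as a description.

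In means over the 3 dogs, several of the genes above had most of their difference at the base. HAS2 stood at 0.08 and 0.61 at the apex dependent and nondependent sites, and at 1.68 and 4.11 at the base dependent and nondependent sites. MT2A stood at 0.18 and 0.69 at the apex and at 1.81 and 3.13 at the base, in the same order of sites. The probe set of THBS1 that passed stood at 0.44 and 0.45, and then at 1.47 and 2.68. The base nondependent site held the highest of the 4 values for each of these 3 genes, and for PRMT1, CCT8 (2.78), G3BP1 (2.43), NAMPT (2.76) and TRIB1 (2.07). None of the base minus apex differences passed, HAS2 at 2.55 and MT2A at 2.03 included (adjusted p = 0.955 for either). The split was weaker in dog 3, where HAS2 stood at 1.15 and 0.89 at the apex and at -0.80 and 3.01 at the base. There MT2A stood at 0.72 and 2.42, then at 0.77 and 2.72. The same probe set of THBS1 stood at 1.02 and 1.47, then at 0.45 and 2.67. RAMP2, CAMK2N1 and SFTPC had mean base minus apex values of -0.17, 0.15 and 0.02, but the dogs did not go the same way. In dog 1, SFTPC stood at 0.13 and -0.39 at the apex and at -0.85 and -1.17 at the base. In dog 3, SFTPC stood at -1.88 and -0.75 at the apex and at -0.30 and -0.0012 at the base. All of these dog 3 pairs but the last stand apart.

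For the lists, medians over the apex and over the base pairs are set side by side. The metallothionein median was 0.031 over the apex pairs and 1.78 over the base pairs. Translation factors stood at -0.009 and 0.53, proteasome subunits at -0.12 and 0.53, splicing factors at -0.15 and 0.43, and MAP kinase feedback at 0.065 and 0.45, against 0.026 and -0.018 for all genes. The list medians of the genes' base minus apex values rested in part on dog 1. Without that dog they went from 0.34 to 0.17 for translation factors, from 0.42 to 0.13 for proteasome subunits, from 0.26 to -0.0030 for splicing factors and from 0.54 to 0.36 for MAP kinase feedback. For the metallothioneins they went from 1.35 to 1.08. With RNA quality covariates and pieces as units they were 0.20, 0.28, 0.11, 0.21 and 1.10, in the same order of lists.

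Both measures of RNA quality differed between base and apex pairs in dog 1. The GAPDH measure differed by 1.42 and 1.35 in its base pairs and by -1.10 and -0.24 in its apex pairs, and the ACTB measure by 1.26 and 1.03 at the base and by -2.04 and -1.52 at the apex. In dog 2 the differences at the base were 0.18 and 0.41 for GAPDH and -0.12 and 0.48 for ACTB, and at the apex 0.07 and -0.15 for GAPDH and -0.14 and -0.03 for ACTB. In dog 3 they were -0.17 and 0.09 for GAPDH and 0.90 and -0.47 for ACTB at the base, and 0.31 and -0.22 for GAPDH and 0.66 and -1.19 for ACTB at the apex. The dependent site is given first in each case. The metallothionein median of the base pairs was 1.86 and 2.12 in dog 1, 1.00 and 3.07 in dog 2, and 0.65 and 1.70 in dog 3. In the apex pairs it was -0.34 and -0.04 in dog 1, 0.10 and -0.20 in dog 2, and 0.72 and 1.83 in dog 3. Both base pairs lay above both apex pairs in dogs 1 and 2 and not in dog 3. The part of RNA quality in this split was not tested on dog means.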

How the data were processed

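Each array measured 1 piece of lung. The authors deposited intensities per probe set with their detection calls and detection p-values, as array files and as 1 table of the series, and the intensities of both were the same (largest difference 0). The 2% trimmed mean was 149.9 to 149.92 on each array, so the deposited intensities had been scaled to about 150. No label or file header used here names the software, its settings or any probe masking. The detection p-values that the authors deposited compare no samples and were not used. No scan day or chip lot was recorded.

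Of 22283 probe sets, 68 controls and 11 without a call were left out, and 20034 Present on at least 6 of 24 arrays were tested on the log2 scale (3 signals of 0 set to 0.1). Names are those of the platform annotation: 17255 tested probe sets had 1 symbol, 930 several and 1849 none, and 10035 of 11226 symbols (89.39%) are also in the RefSeq table of the dog assembly UU_Cfam_GSD_1.0. The pairing comes from the titles, which name the same dog for both lungs.

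The 4 differences of a dog were averaged, since lavage and PEEP were given to whole lungs. The 3 dog means were tested against 0 with limma 3.58.1 in R 4.3.3 (empirical Bayes with an intensity trend, Benjamini-Hochberg adjustment over 20034 probe sets, threshold 0.05). The code was tested on simulated data. The median SE was 0.18 (log2), and the number of dogs limits the precision. The labels do not say whether further differences in handling separated the pieces.

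A gene was described by its brightest tested probe set with 1 symbol. Named were genes past the test, the largest with 12 of 12 pairs of 1 sign, up to 4 per list by number of pairs, and a fixed set. Members, lists and rule were chosen with earlier results of these data known, and the count of at least 10 of 12 pairs after values were seen. The type 1 list without SEC14L3 was added after values were seen. The 3 pairs of dog 3 that stand apart were left out as an alternative. Other scalings, filters, an offset, pieces as units and leaving out each dog were also tried.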

Additional observations from a re-analysis of the deposited data

How the results depend on the processing

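The count of 6 probe sets past the test depended on the processing, and the cause was not tested. It was 42 with pieces as units and the replicate block (27 higher, 15 lower), 30 with RNA quality covariates added (20 and 10), 20 with 32 added to the signal before log2 (11 and 9), 23 among probe sets Present on at least 18 arrays (15 and 8) and 1 with arrays centred on the median (0 and 1). Limma called 0 with quantile normalization (1619 at an unadjusted p under 0.05), with no detection filter (1836), without the intensity trend (1611), without the 3 pairs of dog 3 that stand apart (2179), and with no replicate block (447). Leaving out 1 dog gave 0 to 41 (0 to 24 higher, 0 to 26 lower): 0 without dog 1 (1406 unadjusted), 41 without dog 2 and 35 without dog 3. The block is the dog named in the titles. Probe sets with 1 direction in all remaining pairs numbered 111 to 142 higher and 119 to 164 lower without 1 dog, and 87 and 78 without the 3 pairs, since fewer pairs have to agree. Dependent minus nondependent called 0 to 31 with 1 dog left out, the highest without dog 3.

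Of 98 named probe sets, 89 kept their direction under every alternative run, but this count was partly fixed in advance. Pieces as units without covariates, no replicate block, either change of the detection filter and no intensity trend leave a probe set's mean difference as it is. Many of the named genes were also picked for agreement of their pairs in sign. By the median of the gene's other probe sets, SRGAP3 stood at 0.037, HTRA2 at 0.049, SMAD6 at 0.16, HSPA9 at -0.35, NAMPT at -0.048, BMP5 at 0.95 and IL1B at -0.076. IL6 ran from -0.075 to 0.014 (without dog 2) with 1 dog left out and stood at 0.035 with RNA quality covariates. IL1B ran from -0.12 to 0.33 with 1 dog left out (-0.013 without dog 1), and stood at -0.19 without the 3 pairs and at -0.0021 with the covariates. TNF stood at -0.0082 with centred arrays, ran from -0.17 (without dog 3) to 0.12 with 1 dog left out, and stood at -0.099 without the 3 pairs and at -0.039 with the covariates.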
